A study of Mus musculus with 2 samples.

Results

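The globin genes studied here encode the chains of haemoglobin, and their transcripts were compared between blood-forming mouse cells given an LSD1 inhibitor and cells given its solvent. The members were 5 genes fixed by name, Hba-x, Hbb-bh1, Hbb-y, Hba-a1 and Hbb-b1, out of 22401 genes that the array's annotation names. They were read on 35 probesets, which are small groups of probes against 1 stretch of a transcript, out of 1048575 in the deposited table. Of these, 18 named 1 of the globins alone and 17 named a pair of them. Hba-x had 4 of its own, Hbb-y 4, Hbb-bh1 6 and Hbb-b1 4. Hba-a1 had none of its own, since all 10 of its probesets also named Hba-a2, and another 7 named Hbb-b1 together with Hbb-b2.

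The cells came from Bry-GFP mouse embryonic stem cells, which carry GFP under the mesoderm gene Brachyury. FLK1-positive cells of day 3 embryoid bodies were cultured with DMSO, the solvent, or with 300 nM of compound B, an inhibitor of the histone demethylase LSD1 known here by its code name. On culture day 2 the CD41-positive cells were sorted, and total RNA of each culture was read on 1 Affymetrix array. Per the labels these are hemogenic endothelial cells, and no label names a clone, strain or separate cultures. With 1 array per group, 2 in all, no test between the conditions was possible, and every difference below describes these 2 arrays. The number of arrays limits the precision.

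Haemoglobin joins alpha-like and beta-like chains around haem. In the mouse the first, primitive red cells of the yolk sac use Hba-x, the alpha-like zeta gene, with Hbb-bh1 and Hbb-y, the beta-like beta-H1 and epsilon-y genes. Among those cells Hbb-bh1 prevails early and Hbb-y later. Hba-a1 and Hba-a2 encode the alpha chain of later stages, which primitive red cells also make, and Hbb-b1 and Hbb-b2 encode the adult beta chains. LSD1 is known as part of repressor complexes that bind embryonic beta-like globin genes in adult red cells, and as the partner of Gfi1 and Gfi1b. The adult beta genes of some mouse strains are called Hbb-bs and Hbb-bt, which the array's annotation does not name, and the labels do not say which form the cell line has.

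Of the 5 members, Hbb-b1, which was also lower, and Hbb-bh1 had no entry in the annotation of upstream windows. The upstream sequences of the other 3 members are shown because probesets naming them, for Hba-a1 together with Hba-a2, were lower together in the inhibitor array. They are the 200 bases just before the annotated start, 5′ to 3′ on the gene's strand, from RefSeq's GRCm38.p6 annotation. Capitals mark matches on either strand. CACCC is a box bound by Klf1 and related factors, CCAAT is a common promoter box, the GATA match is AGATAA or TGATAA, and the TATA-like match is TATAA or ATAAA. Hba-x lies on the plus strand at chr11:32276400-32276599, Hba-a1 on the plus strand at chr11:32283472-32283671 and Hbb-y on the minus strand at chr7:103853208-103853407.
Hba-x: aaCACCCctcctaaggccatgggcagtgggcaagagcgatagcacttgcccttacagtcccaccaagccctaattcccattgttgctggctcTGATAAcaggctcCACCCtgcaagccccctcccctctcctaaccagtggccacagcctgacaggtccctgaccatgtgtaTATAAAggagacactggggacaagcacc
Hba-a1: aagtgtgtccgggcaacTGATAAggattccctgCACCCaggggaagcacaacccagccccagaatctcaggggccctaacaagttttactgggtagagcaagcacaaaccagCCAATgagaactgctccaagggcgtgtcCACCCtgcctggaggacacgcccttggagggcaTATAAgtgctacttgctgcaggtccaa
Hbb-y: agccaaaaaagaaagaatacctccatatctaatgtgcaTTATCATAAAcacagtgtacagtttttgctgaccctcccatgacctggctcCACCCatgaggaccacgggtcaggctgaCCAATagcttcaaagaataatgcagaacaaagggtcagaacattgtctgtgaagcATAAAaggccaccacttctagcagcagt

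Each of the 3 windows held a CACCC box, a GATA match and a TATA-like match. The CACCC box nearest to the start began 95 bases before it in Hba-x, 60 in Hba-a1 and 111 in Hbb-y. The GATA match began 108, 183 and 162 bases before the start, and in Hbb-y it is on the other strand and overlaps an ATAAA match. CCAAT was found in Hba-a1, 88 bases before the start, and in Hbb-y, 83 bases before it, but not in the Hba-x window. Over all 32851 upstream windows of 200 bases in the table, 45.5% held CACCC, 29.3% CCAAT, 13.2% a GATA match and 36.1% a TATA-like match. The scanned windows of the adult beta genes Hbb-bs and Hbb-bt, which are not shown, held no GATA match. A match is a run of letters and not a shown binding site. The table's 300-base windows of Hba-a1 and Hba-a2 shared a run of 297 identical bases, whereas those of Hba-a1 and Hba-x shared at most 10 in a row.

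Adult globin signal and the embryonic globins Hba-x and Hbb-y were lower in the inhibitor array, and the embryonic globin Hbb-bh1 differed little. The medians over probesets were lowest for the adult globins. Among probesets reading 12 or more with DMSO, none of them adult beta, this order did not hold. The values below are the deposited values, read as log2 intensity, and a difference is the inhibitor value minus the DMSO value. A probeset counted as bright when the higher of its 2 values reached 3.17, the median of the table, and a gene's difference is the median over its bright probesets. Of the 35 probesets, 34 were bright, 33 of these were lower with the inhibitor, and 28 were lower by at least 1, which is 2-fold. Among all bright probesets that name 1 gene, 6.04% were lower by that much, and their median difference was 0.06. No such share was computed for probesets that name several genes. Of the 17 bright probesets that name 1 listed globin alone, 12 were lower by at least 1, and of the 17 that name a pair, 16 were.

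**Figure D1:**
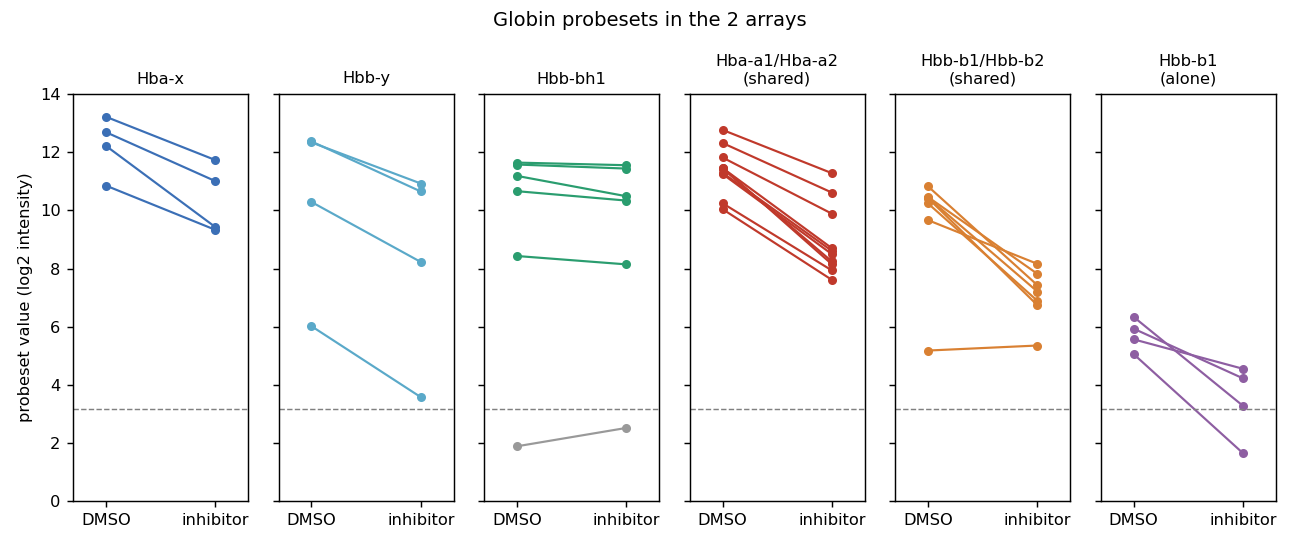
Value of each globin probeset in the DMSO and the inhibitor array (log2 intensity), 1 line per probeset and 1 panel per gene or pair of genes. The dashed line is the table's median of 3.17, and the grey line is the 1 dim probeset. Lines fall in every panel except that of Hbb-bh1, where they are nearly level, and 1 line of the shared adult beta probesets stays level at about 5.

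Hba-x, the embryonic alpha-like gene, had values of 10.86, 12.22, 12.70 and 13.23 on its 4 probesets in the DMSO array. In the inhibitor array the same probesets read 9.33, 9.43, 11.01 and 11.74. All 4 were lower, and the gene was 3.04-fold lower in all (difference -1.60, SD 0.62 over the probesets). The probesets did not differ alike: 3 lay between -1.68 and -1.49 and the other at -2.79. Of 15087 measured genes, which are those with at least 4 bright probesets, 16 were as low as Hba-x or lower, Hba-x itself included.

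Hbb-y, the embryonic epsilon-y gene, read 6.01, 10.29, 12.34 and 12.38 with DMSO and 3.57, 8.23, 10.93 and 10.65 with the inhibitor. Every probeset was lower, with differences from -2.44 to -1.42. The gene was 3.72-fold lower (difference -1.89, SD 0.44), and 9 measured genes were as low or lower, Hbb-y included.

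Hbb-bh1, the other embryonic beta-like gene, stood apart from both. Its 5 bright probesets read 8.43, 10.66, 11.19, 11.58 and 11.65 with DMSO and 8.14, 10.34, 10.49, 11.44 and 11.56 with the inhibitor. The gene difference was -0.29 (1.22-fold, SD 0.24), and 11.8% of measured genes were as low or lower. All 5 were slightly lower, between -0.70 and -0.09, and none reached the 2-fold size. Its sixth probeset was dim in both arrays (1.88 and 2.51) and was left out. The range of Hbb-bh1 did not overlap that of Hbb-y or of Hba-x, although probesets of 1 gene share an RNA sample and are no replicates. It was the single listed globin gene, or pair of genes, without a probeset at the 2-fold size.

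The adult alpha signal comes from the 10 probesets that name Hba-a1 and Hba-a2 together, so the level of neither gene can be given alone. In the DMSO array they ran from 10.05 to 12.78 around a median of 11.45, and in the inhibitor array from 7.61 to 11.28 around 8.55. All 10 were lower by at least 1, with differences from -3.33 to -1.49, and their median of -2.56 is 5.91-fold lower (SD 0.61). Of the measured genes, 1 had a difference as low. The 5 brightest of these probesets by the mean of both arrays gave -1.93.

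The adult beta signal was also lower, with the lowest median of the globins on its shared probesets. The 7 probesets that name Hbb-b1 and Hbb-b2 together read 5.18, 9.67, 10.24, 10.42, 10.44, 10.46 and 10.83 with DMSO. With the inhibitor they read 5.35, 8.16, 6.89, 6.74, 7.21, 7.82 and 7.43, in the same order. Their median difference was -3.23, a 9.38-fold lower signal (SD 1.39), and no measured gene was as low, the lowest of them being at -2.86. The 7 did not act alike: 5 lay between -3.69 and -2.65, 1 at -1.505, and the dimmest at 0.17, the single bright probeset of the members that was not lower. The odd-ranked probesets by brightness alone, which include that one, gave -2.07, above the -2.76 of the odd-ranked shared alpha probesets. As means over probesets the shared beta and alpha values were close, at -2.52 and -2.46.

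The 4 probesets that name Hbb-b1 alone read 5.05, 5.56, 5.93 and 6.34 with DMSO and 1.64, 4.55, 4.22 and 3.27 with the inhibitor. All 4 were lower, from -3.41 to -1.01, and the gene difference was -2.39 (5.23-fold, SD 1.13). The inhibitor value of 1.64 is below the table's median of 3.17, and that of 3.27 is just above it. The sizes of those probesets' differences, -3.41 and -3.06, thus rest on dim values, and the others were at -1.01 and -1.71. With values below the median raised to it, the gene was at -1.80, and with its 2 brighter probesets alone at -1.36. Brighter here means by the mean of both arrays, a ranking in which a probeset that fell further counts as dimmer. These probesets can also bind near-identical paralogs, so the value is uncertain for Hbb-b1 itself.

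**Figure D2:**
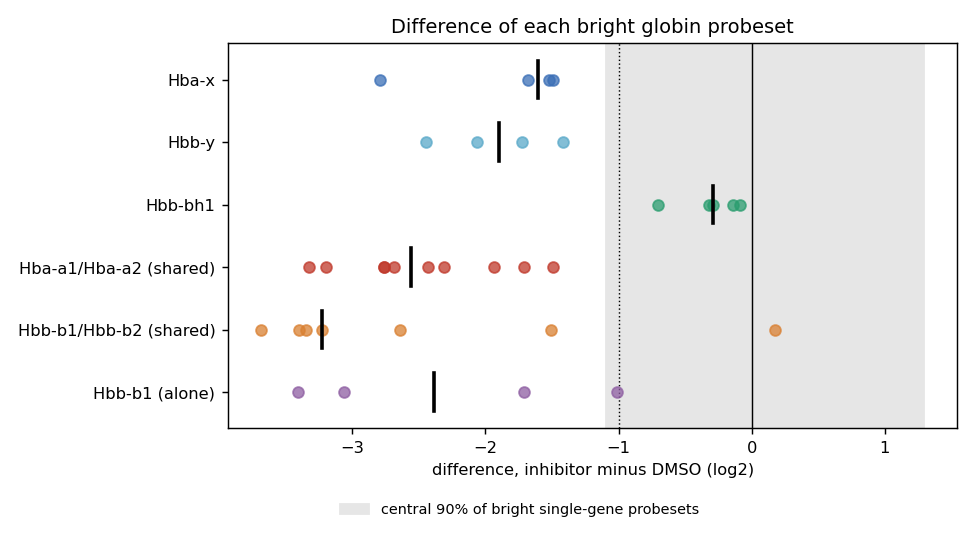
Difference of each bright globin probeset, inhibitor minus DMSO (log2), by gene or pair of genes. Points are probesets, black bars are medians, the dotted line marks a 2-fold lower value, and the grey band holds the central 90% of bright single-gene probesets (-1.09 to 1.298). The Hbb-bh1 points lie inside the band, and those of Hba-x, Hbb-y and the shared adult alpha probesets lie to its left.

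By stage, 20 of 21 bright adult probesets were lower by at least 1, with a median of -2.69, and 8 of 13 embryonic ones were, with a median of -1.49. The 5 embryonic probesets short of that size were those of Hbb-bh1. The ranges of the adult and embryonic probesets overlap, and the gap between the medians has no test. Among probesets at 12 or more with DMSO, the medians were -1.60 for shared adult alpha, -1.68 for Hba-x and -1.57 for Hbb-y. The adult alpha signal was thus not the lowest there, and no adult beta probeset read 12 or more. With the brighter probesets of each alone, by the mean of both arrays, shared beta was at -2.94 and shared alpha at -1.93. Hba-x was then at -1.59, Hbb-y at -1.57 and Hbb-b1 alone at -1.36.

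Brightness and the size of the difference varied together in part of the members. Among the shared adult alpha probesets, the 2 that read 12 or more with DMSO differed by -1.71 and -1.49, and the 8 below 12 by -3.33 to -1.93, the 2 dimmest of them being at -2.43 and -2.31. In Hbb-y the 2 at 12 or more were at -1.72 and -1.42 and the other 2 at -2.44 and -2.07. In Hba-x the order did not hold, since the dimmest probeset was at -1.52 and 1 at 12.22 was at -2.79. In the shared adult beta set it ran the other way: the dimmest, at 5.18, differed by 0.17 and the next, at 9.67, by -1.505. The rest of that set, from 10.24 to 10.83 with DMSO, lay between -3.69 and -2.65. The highest value in the table is 13.51, and whether the brightest globin probesets were near the limit of the scale was not tested. The bright Hbb-bh1 probesets had no value at 12 or more.

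**Figure D3:**
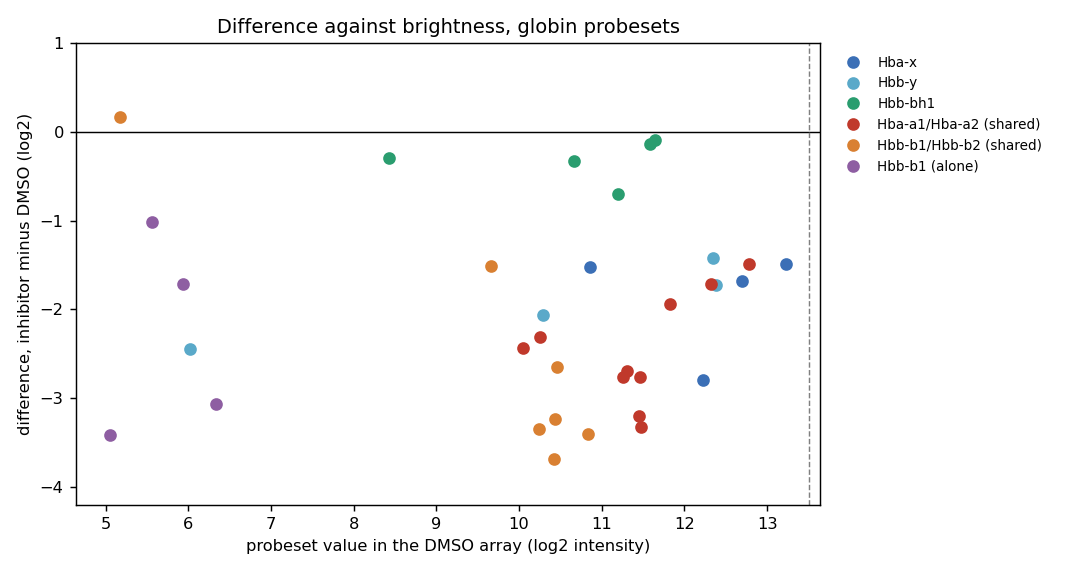
Difference (inhibitor minus DMSO, log2) of each bright globin probeset against its value in the DMSO array (log2 intensity), coloured by gene or pair of genes. The dashed line is the highest value of the table, 13.51. Adult alpha points lie at -2.43 and -2.31 for the 2 dimmest, reach -3.33 at 11.48 and rise to -1.49 at 12.78, and the Hbb-bh1 points stay above -0.71.

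Other members of the globin family gave mixed values. Hbq1a and Hbq1b, the theta-like genes of the alpha cluster, had 3 bright probesets each, too few to count as measured. Those of Hbq1a read 3.33, 6.56 and 6.73 with DMSO and 2.40, 5.02 and 4.77 with the inhibitor, a median difference of -1.54. With the dim probesets kept the Hbq1a difference was -0.93, and with dim values set to the table's median it was -0.16. Hbq1b probesets read 4.76, 6.68 and 6.75 with DMSO and 3.52, 3.70 and 4.58 with the inhibitor, with a median difference of -2.18. Both are uncertain because the genes resemble each other. Hbb-bh2, a beta-like gene between the embryonic and adult ones, had 1 bright probeset, at 4.16 and 4.46. Globins outside red cells did not pass the size rule, which asks for a gene difference of at least 1 with at least 75% of the bright probesets in that direction: cytoglobin gene Cygb was at 0.0031 and androglobin gene Adgb at -0.25.

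Few regulators of the globin loci reached the 2-fold size. Of all 15087 measured genes, 0.563% passed the size rule downward and 1.72% upward, and the median gene difference was 0.06. Of 28 measured regulators, 1 was lower and 1 higher, with a median of -0.09. The lower one was Klf1, the factor that drives adult beta globin, at 6.76 with DMSO and 5.64 with the inhibitor (difference -1.12, SD 1.32, 4 of 5 probesets lower). It did not pass when dim probesets were kept, with even-ranked probesets alone or with dim values raised to the table's median. The higher one was Gata2, a progenitor factor that gives way to Gata1 in red cells, at 6.68 and 7.98 (1.41, SD 0.56, 7 of 7 probesets higher). Gata1 (-0.73, 9 of 9 probesets lower) and Lmo2 of the same complex (-0.78, 6 of 6) did not reach 2-fold. The named repressors of embryonic beta-like globin did not pass the rule. Bcl11a was at -0.43, Sox6 at -0.62, Zbtb7a at 0.04, Myb at -0.35 and the DRED receptors Nr2c1 and Nr2c2 at 0.18 and -0.25. Sox6, the lowest of them, was lower on 24 of 31 probesets and lay below the 5th percentile of measured genes (-0.50).

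Genes that supply haem and iron to haemoglobin were in part lower. Over all measured genes, 0.563% passed the size rule downward and 1.72% upward, with a median of 0.06. Of 16 measured partners, 2 were lower and 1 higher, with a median of -0.48. The lower ones were Slc25a37, which imports iron into mitochondria (7.32 and 5.69, difference -1.55, 14 of 14 probesets), and Tfrc, the transferrin receptor (8.91 and 7.51, -1.19, 17 of 18). The higher one was Hmox1, the enzyme that breaks down haem, at 8.49 and 9.68 (1.36, SD 1.04, 9 of 9 probesets higher). Most enzymes of haem synthesis lay below 0 without passing the rule, such as Cpox at -0.90, Uros at -0.86, Urod at -0.61 and Fech at -0.56. Alas2, the first enzyme of haem synthesis in red cells, was at -0.07 over 13 probesets.

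Other red cell genes were lower in part. The shares of all measured genes past the size rule were 0.563% downward and 1.72% upward, and their median was 0.06. Of 17 measured genes in this red cell list, the median was -1.17, 15 lay below 0, none passed the rule upward and 9 passed it downward. They were Trim10 (-2.51), the carbonic anhydrases Car1 (-2.31) and Car2 (-1.19), the erythropoietin receptor Epor (-1.64), Hemgn (-1.45), the membrane skeleton genes Sptb (-1.38) and Epb42 (-1.18), Kel (-1.17) and the anion exchanger Slc4a1 (-1.15). Kel and Slc4a1 did not pass when dim probesets were kept, nor did Car2 as a mean over probesets. Car1, at 2.67 with the inhibitor, was under the table's median there (SD 1.84), and Trim10 had an SD of 1.52. The shared adult globin probesets, at -2.56 and -3.23, lay below the values of all 9, and Hbb-b1 alone, at -2.39, lay above Trim10. Over the processing alternatives the shared alpha (-2.76 to -1.93) and shared beta (-3.35 to -2.07) values both overlapped that of Trim10 (-2.82 to -1.68). Both also overlapped those of Car1 (-3.62 to -1.28) and Hemgn (-2.45 to -1.29). The shared alpha range further overlapped those of Epor (-2.065 to -1.27) and Slc4a1 (-1.96 to -0.54). A drop in the number of red cells in the gate and less RNA per cell cannot be told apart in these bulk samples.

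Of 12 measured genes on either side of the alpha and beta clusters, none passed the size rule in either direction, and their median was 0.02. With 0.563% of all measured genes past the rule downward, a count of 0 in 12 is near the background. Nprl3, whose introns hold enhancers of alpha globin, was at 4.79 and 5.38 (0.52, 15 of 20 probesets higher). Snrnp25 was the lowest, at 9.14 and 8.40 (-0.60, 7 of 7 probesets lower), and Trim30a and Stim1 were at 0.42 and -0.30.

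**Figure D4:**
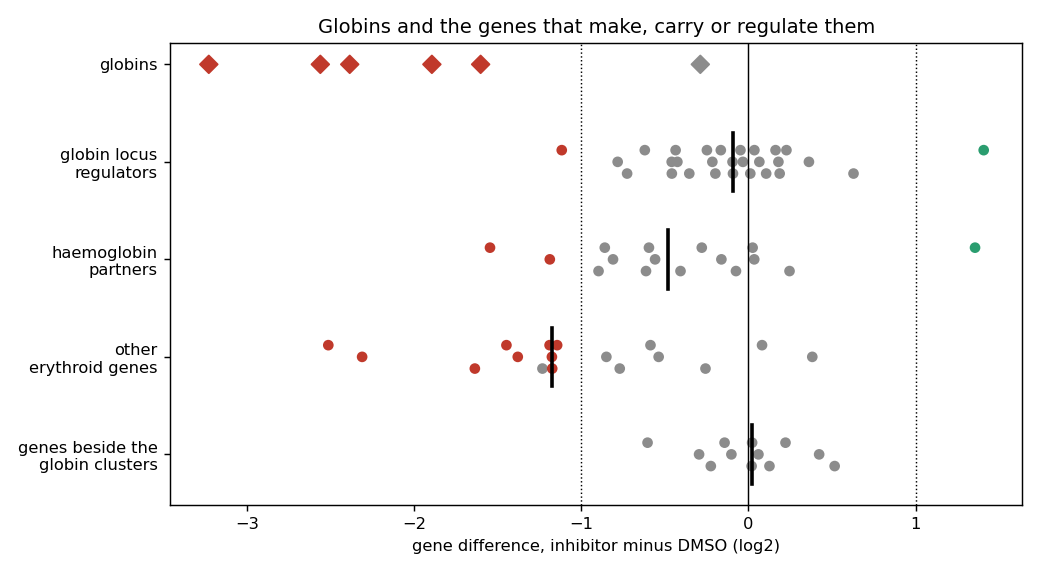
Gene difference (inhibitor minus DMSO, log2) of the 6 globin genes or pairs (diamonds) and of the measured genes of 4 lists (points), with list medians as black bars and dotted lines at a 2-fold change. Red marks lower and green higher values past the size rule; for the diamonds, red marks a difference of at least 2-fold lower. The globins reach -3.23, other erythroid genes centre on -1.17, and the neighbours of the clusters centre on 0.02.

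Markers of red cells and of other cells also differed between the arrays, in a direction that depended on the list. Beside these lists, 0.563% of all measured genes passed the size rule downward and 1.72% upward, and the median gene difference was 0.06. Of 8 measured red cell markers, all of them among the genes given above, 7 were lower and the mean level was 6.53 with DMSO and 5.33 with the inhibitor. Of 11 endothelial markers, 5 were higher (Cdh5, Esam, Sox7, Ramp2 and Egfl7), none was below 0, and the mean level was 5.68 and 7.34, in that order. Of 6 measured megakaryocyte and platelet markers, Pf4, Thbs1 and P2rx1 were lower (means 5.53 and 4.42), with Pf4, at 2.70, under the table's median in the inhibitor array. Of 5 myeloid markers Lyz2 was higher (means 4.99 and 5.48). Of 9 markers of the sorted progenitors, Gfi1 and Gfi1b were higher and none passed the size rule downward. Below 0 lay 5 of them, the lowest being Kit at -0.66 (20 of 22 probesets lower). Itga2b, which encodes the sort marker CD41, was at 6.19 and 5.996 (-0.12). The table has no detection call, so no marker can be given as absent. The part of these shifts in the globin differences was not tested.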

How the data were processed

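RNA of CD41-sorted cells was labelled with biotin and read on 1 array per condition, per the labels' protocols. The deposited table gives 1 value per probeset and array, taken as log2 intensity from its range of 0.16 to 13.5. How the authors summarised and normalized it is not given here by any label or header. At equal rank both arrays differ by at most 0.085. The table's length is that of a full spreadsheet, so probesets may be missing.

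Gene names came from the platform's annotation, with older symbols updated through RefSeq's GRCm38.p6 table (18182 symbols were current, 4358 updated and 70 kept). Of the probesets, 270105 named 1 gene and 5737 several. Gene differences were medians over bright probesets, computed with Python 3.11.15 and pandas 2.3.3 and tested on simulated data. SDs are over probesets and are no replicate error. There were no p-values.

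The members and gene lists were chosen with earlier results of these data known. The text names all members, the list genes past the size rule and, except for the marker lists, the 4 genes of each list with the largest differences. The named repressors, haem enzymes, markers and other globins outside that rule were chosen after their values were seen. Alternatives covered scaling, brightness filters, probeset subsets and thresholds.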

Additional observations from a re-analysis of the deposited data

How the results depend on the processing

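Outside the shared beta set every bright probeset of the members was lower, so no subset or mean of these could exceed 0. Some filters also changed nothing, as for Hba-x, which stayed at -1.60 with no filter on dim probesets. With these limits, all 6 globin differences (Hba-x, Hbb-y, Hbb-bh1, Hbb-b1 and both shared sets) stayed below 0 in the 13 or 14 alternatives run for each. Their ranges, the reported value included, were -2.14 to -1.52 for Hba-x, -2.25 to -1.57 for Hbb-y, -0.35 to -0.14 for Hbb-bh1, -3.06 to -1.36 for Hbb-b1, -2.76 to -1.93 for the shared alpha and -3.35 to -2.07 for the shared beta probesets. With the brighter probesets alone the shared alpha value moved to -1.93, by more than the SD over its probesets. Leaving out probesets at 12 or more in DMSO and setting the median gene to 0 were added after seeing the data. Counts of measured genes lower and higher, 85 and 259, became 402 and 882 at 1.5-fold, 18 and 70 at 3-fold, 439 and 641 with at least 1 bright probeset, and 44 and 155 with at least 8. Klf1, Kel and Slc4a1 missed the size rule in 3 of the 14 alternatives, Car2 in 2, and Car1, Epb42 and Hemgn in 1. Depth does not apply to arrays, and signal over background could not be judged without a detection call.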
